A study of Mus musculus with 12 samples.

Results

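Ly6a, Ly6e, Ly6c1, Ly6c2, Ly6i and Ly6d were followed through every cell class of a mouse single-cell RNA study of tracheal allografts, native tracheas and spleens. They are 6 of the 31053 genes in the deposited gene table and were found there by symbol; all 6 had UMIs (unique molecular identifiers, each a captured RNA molecule) in each of the 3 libraries. They were chosen by their measured levels in these same libraries: Ly6i and Ly6a had already been seen to be higher in the allograft library than in the native library. The levels below are therefore a description, with no test. The study's title concerns mononuclear phagocytes and fibrosis in obliterans bronchiolitis, the scarring of the airway that follows transplantation, for which the transplanted trachea is a model. Its 12 samples are 4 from tracheal allografts, 4 from native tracheas and 4 from spleens. The labels give no strain, genotype, sex, age, time after grafting, treatment or sort, and the samples of a source differ only by an S number in their titles. The 4 samples of each source were deposited as 1 pooled matrix in which cells could not be assigned to samples, so each source is 1 library with no replicate check.

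The Ly6 proteins are small, three-fingered proteins that are fixed to the outer face of the cell membrane by a glycosylphosphatidylinositol (GPI) anchor, and in the mouse they are among the oldest surface markers used to tell blood cells apart. Ly6a is Sca-1, the marker of blood stem cells, of activated lymphocytes and of progenitor-like fibroblasts, and its gene responds to interferons. Ly6c1 and Ly6c2 together encode the Ly6C antigen, by which classical inflammatory monocytes are separated from patrolling monocytes and which is also carried by endothelium and memory CD8 T cells. Ly6e is an interferon-responsive member known for its effect on virus entry, Ly6d marks cells committed to the B lineage as well as thymocytes and some epithelia, and Ly6i is a little-studied close relative of Ly6a. Sca-1 is known to differ in level between inbred mouse strains, so strain and source cannot be told apart here.

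The 6 genes lie in 1 cluster on mouse chromosome 15. In the GENCODE M21 annotation of GRCm38, Ly6d is at chr15:74762056-74763620, Ly6e at chr15:74955051-74959905, Ly6i at chr15:74979534-74983430, Ly6a at chr15:74994877-74998031, Ly6c1 at chr15:75044018-75048830 and Ly6c2 at chr15:75108158-75111970. Ly6e is on the plus strand and the other members are on the minus strand. Together with Ly6g, the neutrophil antigen gene next to Ly6c2, they span 397 kb. Their coding sequences run from 381 bases in Ly6d to 408 in Ly6e. Ly6c1 and Ly6c2 had 384 of 393 aligned coding bases in common (97.7%), and Ly6a and Ly6i had 347 of 402 (86.3%), whereas Ly6e and Ly6d shared 44.5 to 49.6% with the other members. The first 150 coding bases of the 4 close members show how little separates genes whose cells turn out to differ. They are written 5′ to 3′ on the coding strand of GENCODE M21 (GRCm38), and capitals mark letters unlike Ly6c2, of which Ly6c1 has 6, Ly6a 16 and Ly6i 20.
Ly6c2: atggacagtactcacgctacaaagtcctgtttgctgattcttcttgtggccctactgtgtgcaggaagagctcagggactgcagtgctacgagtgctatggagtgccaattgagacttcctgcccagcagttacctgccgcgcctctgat
Ly6c1: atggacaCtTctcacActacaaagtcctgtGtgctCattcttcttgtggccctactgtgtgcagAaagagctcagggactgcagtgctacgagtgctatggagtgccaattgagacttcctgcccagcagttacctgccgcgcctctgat
Ly6a: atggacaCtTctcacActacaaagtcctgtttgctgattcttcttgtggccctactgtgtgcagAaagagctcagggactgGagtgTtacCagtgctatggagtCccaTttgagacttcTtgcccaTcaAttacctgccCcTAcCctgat
Ly6i: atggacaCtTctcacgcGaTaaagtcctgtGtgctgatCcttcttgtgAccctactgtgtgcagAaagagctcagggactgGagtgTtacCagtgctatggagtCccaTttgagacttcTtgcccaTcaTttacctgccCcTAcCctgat

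Because the assay counts RNA at its 3′ end, sequence there decides which gene a read is given to. Of the 60-base windows in the last 500 transcript bases, 24.1% of those of Ly6c1 and 28.5% of those of Ly6c2 also occurred in another gene, mostly each other. The share was 3.66% for Ly6a, 4.03% for Ly6i and 0 for Ly6e and Ly6d. Counts of Ly6c1 and Ly6c2 are therefore uncertain where the other is abundant. The windows taken upstream of the start of Ly6c1 and Ly6c2 were less alike than the coding parts, in part because of where the windows lie. The 250 bases before each RefSeq start (GRCm38.p6, minus strand, chr15:75048838-75049087 for Ly6c1 and chr15:75111972-75112221 for Ly6c2) were identical at 164 of 284 aligned positions (57.7%). The windows are offset, so letters near their ends that have no counterpart inside the other window count as not identical. The percentage therefore partly reflects window placement. The sequences are shown 5′ to 3′, and capitals mark letters that are not identical in the alignment, those ends included.
Ly6c1: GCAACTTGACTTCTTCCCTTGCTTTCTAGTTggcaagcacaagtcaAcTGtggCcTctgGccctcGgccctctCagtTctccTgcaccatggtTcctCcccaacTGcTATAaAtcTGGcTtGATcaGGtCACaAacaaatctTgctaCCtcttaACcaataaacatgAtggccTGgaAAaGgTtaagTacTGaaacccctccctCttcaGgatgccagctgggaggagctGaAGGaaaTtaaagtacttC
Ly6c2: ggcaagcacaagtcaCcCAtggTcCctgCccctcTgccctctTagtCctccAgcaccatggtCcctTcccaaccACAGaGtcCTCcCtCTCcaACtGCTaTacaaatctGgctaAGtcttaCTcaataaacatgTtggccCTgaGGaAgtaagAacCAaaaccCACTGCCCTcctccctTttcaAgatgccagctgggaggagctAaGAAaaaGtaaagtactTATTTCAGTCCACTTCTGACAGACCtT
The interferon-gamma activated site TTCNNNGAA was found in 8.30% of 32851 RefSeq promoter windows of 300 bases and the interferon-stimulated response element (GAAA, any 2 bases, GAAA) in 3.44%, both searched on both strands. Neither set of letters occurred in the 4 windows listed for Ly6c1 and Ly6c2.

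After filtering, 3864 allograft, 4115 native and 4570 spleen cells were used, with a median of 4965, 6526 and 4428.5 UMIs per cell. The libraries shared 4 to 7 cell barcodes in pairs. The trachea samples are labelled mesenchymal progenitors, but RNA of Ptprc, the CD45 gene of leukocytes, was found in 87.7% of allograft and 63.3% of native cells, and Pdgfra, a fibroblast marker, in 1.3% and 19.8%. Cells were placed in classes by UMIs of marker genes that include no Ly6 gene. C1q macrophages (10 or more UMIs of C1qa, C1qb and C1qc) numbered 1713 in the allograft, 1560 in the native and 57 in the spleen library. T cells numbered 357, 207 and 1062, neutrophils 462, 538 and 239, B cells 35, 58 and 2183, NK cells 91, 2 and 63, and fibroblasts 26, 848 and 0. A further class of Csf1r-bearing phagocytes with little C1q, which holds monocytes, numbered 591, 339 and 478. Markers of other sources were also present in single libraries. The club-cell gene Scgb1a1 had UMIs in 18.1% of all native cells and 22.9% of native C1q macrophages, and the haemoglobin gene Hbb-bs stood at 19593 CPM (counts per 1000000 UMIs of a class) in spleen C1q macrophages. The part of such free or carried RNA in the Ly6 values was not tested, and most members are set below beside a class in which they were low.

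The class holding most UMIs of a gene differed between the tracheal libraries for Ly6a and Ly6i, but not for Ly6e, Ly6c1, Ly6c2 and Ly6d. Of all Ly6a UMIs, 61.0% in the allograft library lay in C1q macrophages and 16.9% in low-C1q phagocytes, while 65.3% in the native library lay in fibroblasts and 64.4% in the spleen library in B cells. Ly6e, found in most cells, came chiefly from C1q macrophages in both tracheal libraries (67.8% and 64.3%) and from B cells in spleen (59.6%). Ly6i came from C1q macrophages (51.6%) and low-C1q phagocytes (41.4%) in the allograft and from neutrophils (43.5%) and low-C1q phagocytes (30.6%) in the native trachea. Ly6c2 came first from low-C1q phagocytes in the allograft (50.7%) and native (45.6%) libraries, and in spleen was split between plasma cells (22.04%), T cells (20.6%) and low-C1q phagocytes (20.6%). Ly6c1 came from fibroblasts in both tracheal libraries (65.0% and 63.4%) and from T cells in spleen (87.2% of 47 UMIs). B cells held 53.3%, 57.3% and 91.7% of the Ly6d UMIs. Dendritic cells held a further 29.8% in the allograft and T cells 22.9% in the native library.

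**Figure D1:**
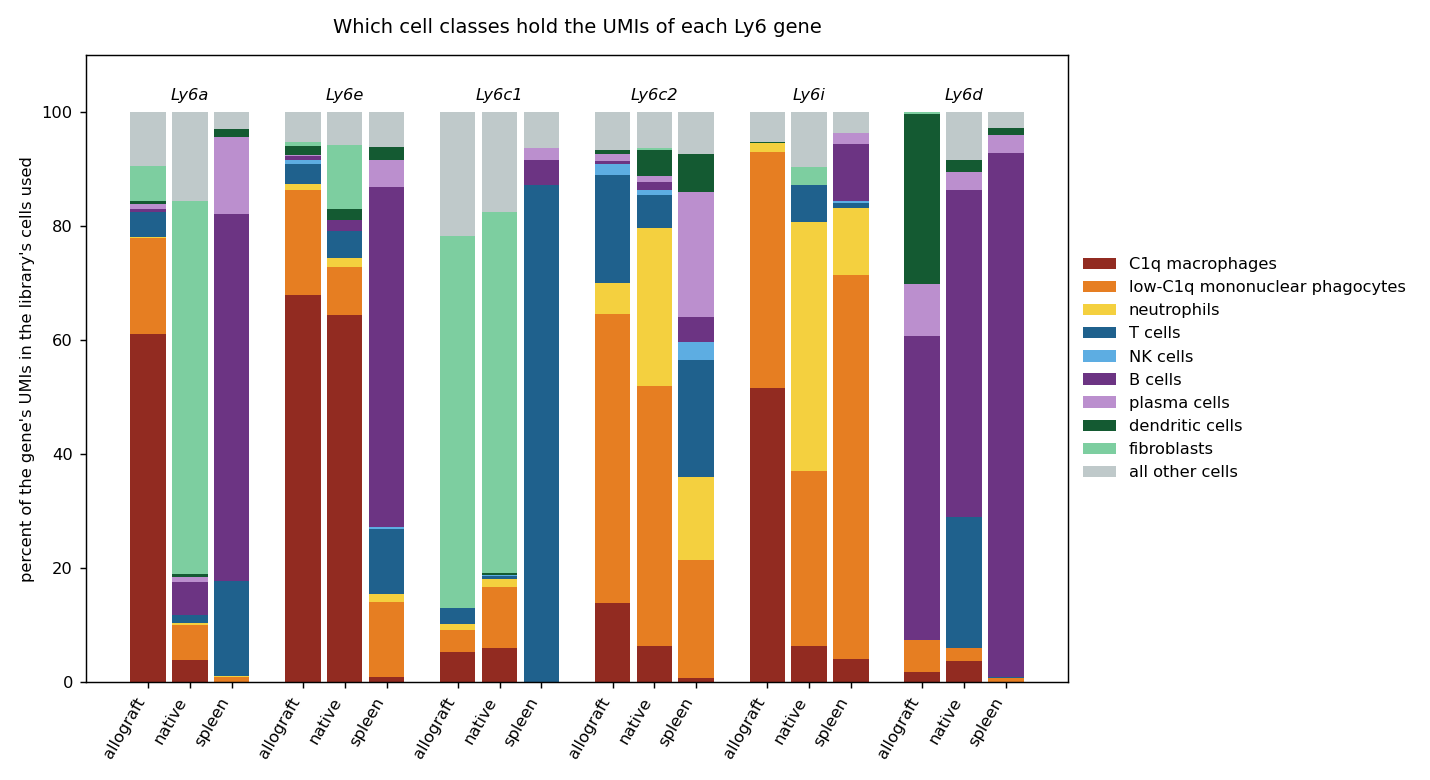
Share of each gene's UMIs (percent, vertical axis) that lay in each cell class, as stacked bars, 1 for each gene and library. Ly6a moves from fibroblasts in the native library (65.3%) to C1q macrophages in the allograft library (61.0%) and B cells in the spleen library (64.4%), whereas Ly6e keeps C1q macrophages as its main source in both tracheal libraries.

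Over all cells the level of Ly6a was 565 CPM in the allograft, 100.1 in the native and 434 in the spleen library, and that of Ly6i was 74.8, 2.04 and 18.6. Ly6c2 stood at 135, 23.6 and 134, Ly6e at 1271, 641 and 1188, Ly6d at 11.2, 24.9 and 1005, and Ly6c1 at 8.08, 12.6 and 1.69. Thus Ly6a and Ly6c2 were low in the native library alone, Ly6i was high in the allograft library, and Ly6d was high in spleen, where B cells are the largest class. With 95% intervals that cover counting error only, as everywhere below, Ly6i was 36.3-fold (28.4 to 48.0), Ly6c2 5.69-fold (5.25 to 6.18) and Ly6a 5.64-fold (5.42 to 5.87) higher in allograft than in native cells. Ly6d was 2.22-fold lower (1.94 to 2.56). Ly6e was 1.98-fold higher (1.95 to 2.02) and Ly6c1 1.56-fold lower (1.31 to 1.86), both short of the 2-fold mark used here. So 4 of 6 members lay 2-fold or more apart, where 24.6% of all 15100 genes with 20 or more summed UMIs did; the median log2 ratio was 1.74 over the members and 0.03 over all these genes. Because the classes differ in number between libraries, each gene was then read within classes.

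**Figure D2:**
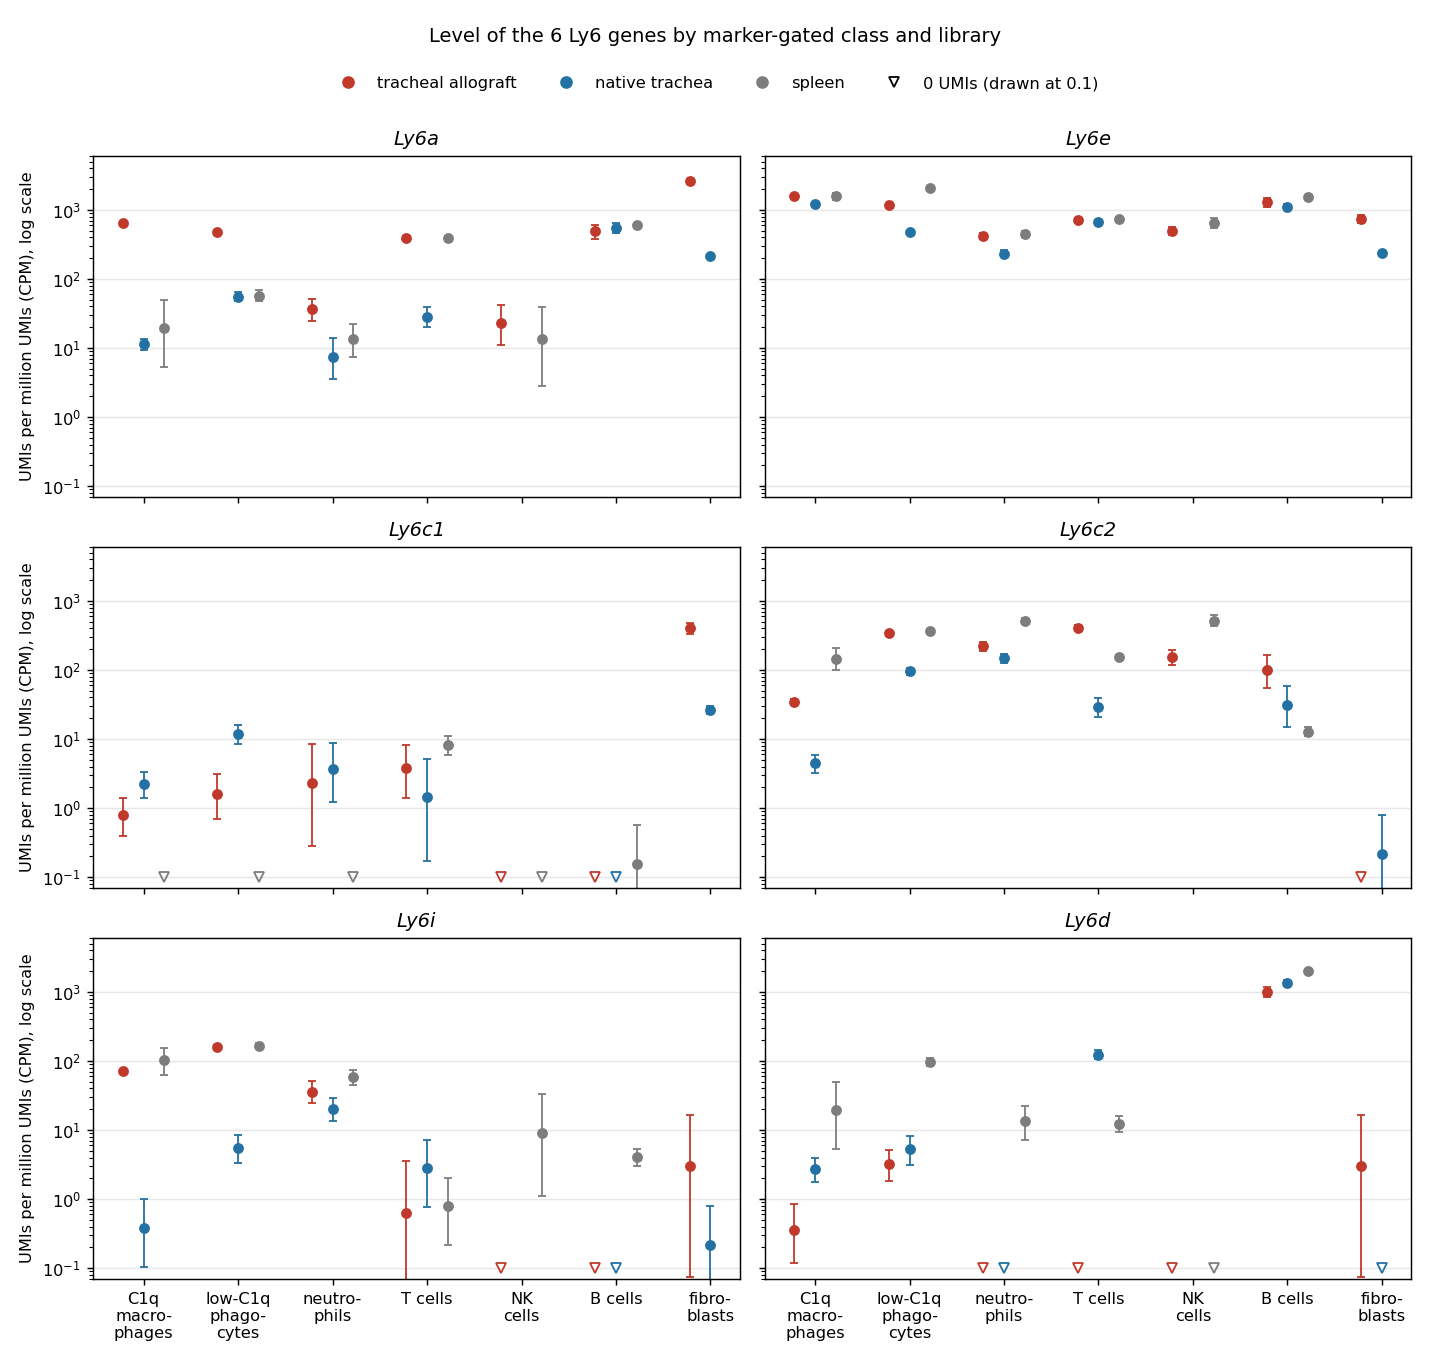
Level of each Ly6 gene (CPM, log axis) by cell class in the allograft, native and spleen libraries, with bars for the 95% counting interval. Open triangles at 0.1 CPM are groups with 0 UMIs, and groups under 20 cells are not drawn; Ly6a in C1q macrophages is 635 CPM in the allograft and 11.3 in the native library, whereas Ly6e is 1589 and 1209 there.

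Ly6a, the Sca-1 gene, was high in allograft phagocytes and T cells and low in their native counterparts. In C1q macrophages it stood at 635 CPM in the allograft (8788 UMIs), 11.3 in the native trachea (117 UMIs) and 19.4 in spleen (4 UMIs). The allograft level was 55.9-fold the native level (46.8 to 68.0) and 29.0-fold the spleen level (12.8 to 119.9), the latter resting on 4 spleen UMIs. In low-C1q phagocytes it was 484, 55.5 and 57.2 CPM, so the allograft exceeded the native library 8.69-fold (7.51 to 10.2) and the spleen library 8.42-fold (7.03 to 10.2). In T cells it was 393, 28.5 and 398 CPM. Here the native library stood apart: the allograft level was 13.6-fold the native level (10.0 to 19.5) and 0.99 times the spleen level (0.90 to 1.08). In B cells Ly6a was close between libraries, at 486 CPM in 35 allograft cells, 548 in native and 609 in spleen. Native B cells therefore carried Ly6a at a level that native T cells and macrophages did not. Neutrophils were low throughout, at 36.1, 7.48 and 13.3 CPM, as were NK cells at 22.9 in the allograft and 13.6 in spleen.

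In C1q macrophages and T cells, fewer positive cells accompanied the low Ly6a levels. RNA of Ly6a was found in 55.9% of allograft, 4.62% of native and 7.02% of spleen C1q macrophages, at median depths of 7022, 6247.5 and 2458 UMIs per cell. After every cell was thinned to 1000 UMIs, with shallower cells left out, the shares were 31.5%, 1.03% and 2.04%. The last is 1 of 49 cells. Among T cells, at median depths of 3934, 4103 and 4303, they were 56.6%, 11.1% and 54.0%, and thinned 29.1%, 1.94% and 27.6%. Among neutrophils, a class low in Ly6a in all libraries, the unthinned shares were 3.68%, 1.67% and 5.44% at median depths of 1727, 2021.5 and 2542. Thinned, they were 2.67%, 0.373% and 1.26%, from 12, 2 and 3 positive cells. The intervals of allograft and spleen overlapped before and after thinning, so no order between them is read. Native T cells included immature cells, since 70 of 207 had RNA of the recombination genes Rag1 or Dntt. These 70 had 8.9 CPM of Ly6a, and the other 137 had 41.5. Among T cells with Cd8 and no Cd4 RNA, Ly6a was 418 CPM in the allograft, 10.4 in the native and 166 in the spleen library, and among those with Cd4 alone 485, 53.6 (22 cells) and 638. Cells with Foxp3, the regulatory T cell gene, stood at 527 in the allograft and 364 in spleen.

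**Figure D3:**
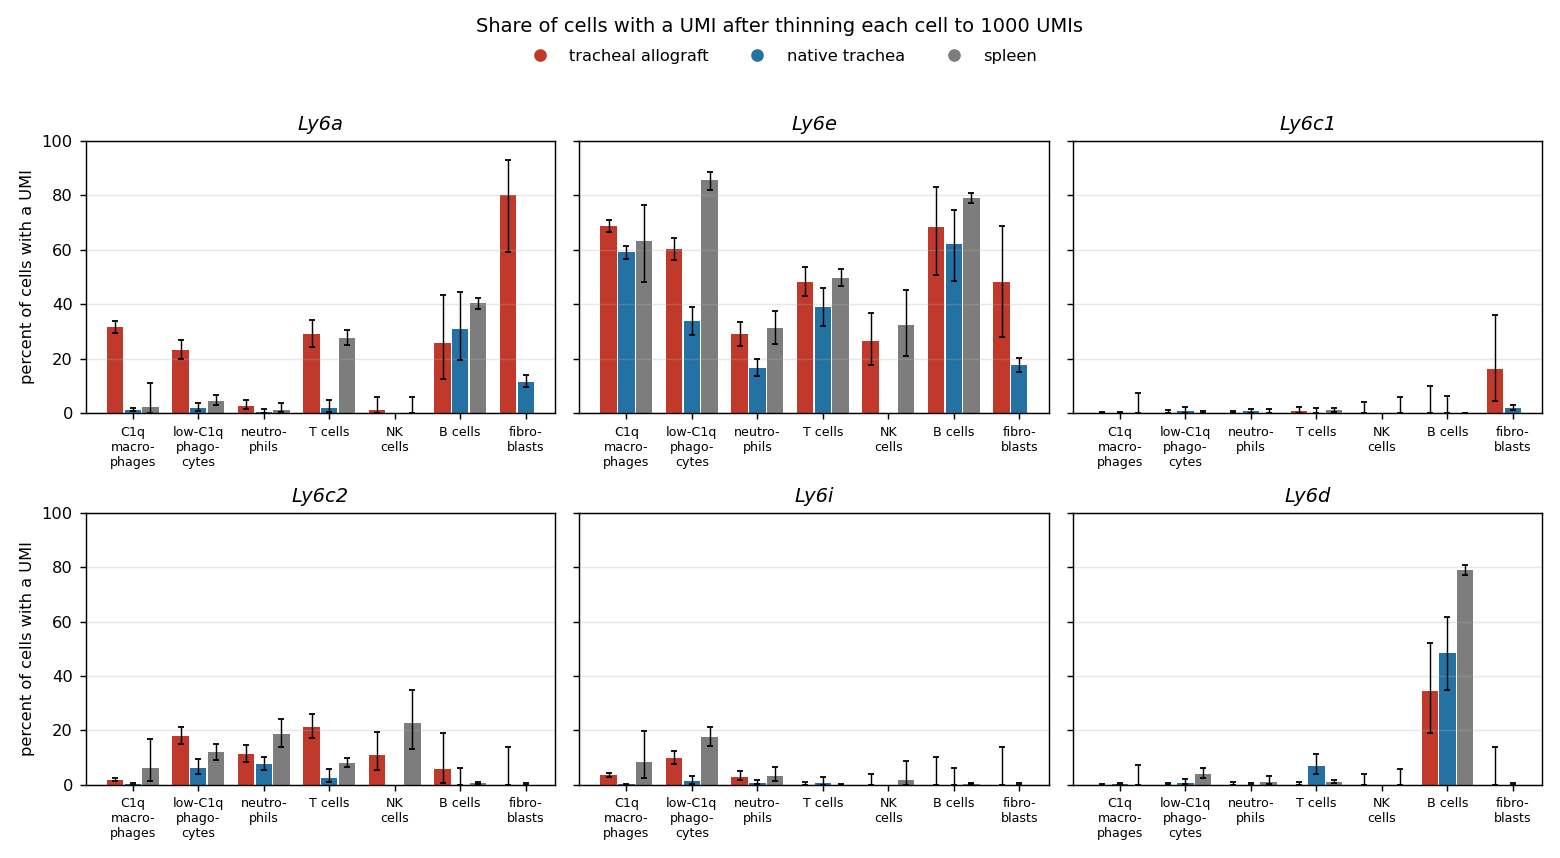
Percent of cells with 1 or more UMI of each Ly6 gene after thinning every cell to 1000 UMIs, by class and library (bars), with 95% binomial intervals. Cells with under 1000 UMIs were left out. Ly6a is found in 31.5% of allograft and 1.03% of native C1q macrophages, and in 29.1%, 1.94% and 27.6% of allograft, native and spleen T cells.

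Allograft C1q macrophages were not alike in Ly6a. The 201 with RNA of Arg1 or Nos2, the arginine-metabolising enzymes of activated macrophages, had 1251 CPM, and the 292 with 2 or more UMIs of Cxcl9, an interferon-gamma induced chemokine, had 1105. Those with Gpnmb or Spp1, genes of lipid-handling and scar-associated macrophages, had 270 CPM over 356 cells, and the 42 with Lyve1 or Cd163, markers of resident macrophages, had 845. Without the Cxcl9 cells the other 1421 stood at 496 CPM. Every one of these levels was above the 11.8 CPM of the 868 native macrophages with Lyve1 or Cd163.

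Allograft fibroblasts, few as they were, held the highest Ly6a level of any class. Fibroblasts stood at 2646 CPM in the allograft (26 cells, 884 UMIs) and 215 in the native trachea (848 cells, 1982 UMIs), and Ly6a RNA was found in 96.2% and 39.9% of them (median depths 12233.5 and 11047.5). With under 50 allograft fibroblasts no ratio was formed. Within native fibroblasts the 631 with Pi16 or Dpp4, genes of adventitial progenitor-like fibroblasts, had 225 CPM, the 146 with Inmt or Ces1d 133, and the 71 with neither 311. The 48 allograft cells with the cartilage genes Acan or Col2a1 had 1014 CPM, against 233 in 10 native cells (22 UMIs). UMIs of 3 Y-linked genes were present in 41 of those 48 cells (85.4%), in 3 of the 26 allograft fibroblasts and in 4 of the 1713 allograft C1q macrophages. Those genes had 0 UMIs in the native and spleen libraries. The 23 allograft fibroblasts without Y-linked UMIs had 2504 CPM of Ly6a.

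Ly6i, the close relative of Ly6a, was found mainly in mononuclear phagocytes and neutrophils. In low-C1q phagocytes it stood at 157 CPM in the allograft (789 UMIs), 5.52 in the native trachea (19 UMIs) and 166 in spleen (349 UMIs), so the native library stood apart. The allograft was 27.7-fold above the native level (18.1 to 47.5) and 0.94 times the spleen level (0.83 to 1.07). In C1q macrophages it was 71.1 CPM (984 UMIs), 0.386 (4 UMIs) and 102 (21 UMIs, 42.9% of them in 1 cell, and 58.3 CPM without that cell). The allograft to native ratio was 164 (71.6 to 677), which rests on 4 native UMIs. Neutrophils had 36.1, 20.2 and 58.2 CPM, and the allograft ratio of 1.78 (1.03 to 3.11) to native was below 2-fold. T cells, in which Ly6i was near 0, had 0.63, 2.85 and 0.79 CPM from 1, 4 and 4 UMIs. Ly6i RNA was found in 10.3% of allograft C1q macrophages and 23.0%, 4.72% and 41.0% of low-C1q phagocytes, at median depths of 7163, 9275 and 3593, and in 9.83% and 17.6% of the latter in the allograft and spleen after thinning.

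Within the allograft C1q macrophages Ly6i, like Ly6a, was higher in the Arg1 or Nos2 and the Cxcl9 subsets than in the Gpnmb or Spp1 subset, whereas the Lyve1 or Cd163 cells had Ly6a without Ly6i. It was 250.2 CPM with Arg1 or Nos2, 242 with Cxcl9 and 55.2 with Gpnmb or Spp1, and it had 0 UMIs in the 42 cells with Lyve1 or Cd163. The 292 Cxcl9 cells held 761 of the 984 UMIs, and the other 1421 cells stood at 20.9 CPM. With the Gpnmb or Spp1, Arg1 or Nos2 and Cxcl9 cells all left out of C1q macrophages, the allograft to spleen log2 ratio of Ly6i was -2.73, in place of -0.56 with them. Among low-C1q phagocytes, cells with Ace or Treml4, genes of patrolling monocytes, had 275 CPM of Ly6i in the allograft, 22.9 in the native trachea and 191 in spleen. Cells with Ccr2, the receptor of classical monocytes, had 168, 2.0 and 85.3.

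Ly6c2, the main Ly6C gene of monocytes, was found in phagocytes, neutrophils, T cells, NK cells and plasma cells. In low-C1q phagocytes it was 346 CPM in the allograft, 95.1 in the native trachea and 367 in spleen. The allograft was 3.63-fold above native (3.23 to 4.11) and 0.94 times spleen (0.86 to 1.03). Cells with Ccr2 had 535, 115 and 2086 CPM (36 spleen cells) and those with Ace or Treml4 332, 149 and 135. Ccr2 cells exceeded Ace or Treml4 cells in the allograft and in spleen, but not in the native library. In C1q macrophages Ly6c2 was 34.3 CPM in the allograft (475 UMIs), 4.44 in the native library (46 UMIs) and 146 in spleen (30 UMIs). A single native cell held 58.7% of the native UMIs and a single spleen cell 43.3% of the spleen UMIs, and without them the levels were 1.83 and 82.6 CPM. The allograft to native ratio was 7.65 (5.70 to 10.7), and the spleen level was 4.32-fold the allograft level (2.84 to 6.15).

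T cells carried Ly6c2 at 409 CPM in the allograft, 29.2 in the native trachea and 153 in spleen. The native T cells here included the immature ones with Rag1 or Dntt RNA. The allograft level was 13.8-fold the native level (10.2 to 19.7) and 2.67-fold the spleen level (2.40 to 2.97). Its RNA was found in 34.7%, 5.31% and 15.4% of T cells, and in 21.2%, 2.43% and 7.92% after thinning. In native fibroblasts, in which Ly6c2 was near 0, 2 UMIs gave 0.22 CPM in 848 cells. Cells with Cd8 and no Cd4 RNA had 602, 20.8 and 299.7 CPM. Cells with Cd4 alone had 164, 0 and 21.8 CPM, but 58.2% of the allograft and 75.0% of the spleen UMIs there lay in 1 cell. NK cells were ordered the other way, with 153 CPM in the allograft (67 UMIs) and 517 in spleen (114 UMIs), a level 3.36-fold lower in the allograft (2.47 to 4.63).

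In neutrophils Ly6c2 was 219 CPM in the allograft, 148 in the native library and 519 in spleen. This order depended on immature neutrophils, marked by 10 or more UMIs of the granule genes Ngp, Camp and Ltf. They had 810 CPM in the native library (26 cells) and 924 in spleen (60 cells), and the other neutrophils had 206, 62.5 and 97.3. With the granule-gene cells left out, the log2 ratio of Ly6c2 in neutrophils was 1.72 between allograft and native libraries, in place of 0.56, and 1.07 between allograft and spleen, in place of -1.24. Between native and spleen it was -0.64 in place of -1.81. The 109 spleen plasma cells had 320 CPM of Ly6c2, 633 of Ly6a and 357 of Ly6d.

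Ly6c1, the Ly6C gene best known from endothelium, was scarce and was found mainly outside the leukocytes. In fibroblasts it stood at 401 CPM in the allograft (134 UMIs in 26 cells, 26.1% of them in 1 cell) and 26.2 in the native trachea (242 UMIs in 848 cells). The 21 native endothelial cells had 310 CPM (36 UMIs) and the 11 allograft endothelial cells 87.7 (7 UMIs). Native fibroblasts with Pi16 or Dpp4 had 31.1 CPM, those with Inmt or Ces1d 9.3 and the rest 7.6. Among leukocytes the levels were low: 0.79 and 2.22 CPM in allograft and native C1q macrophages (11 and 23 UMIs), and 1.59 and 11.9 in low-C1q phagocytes (8 and 41 UMIs, none in spleen). These give ratios 2.73-fold (1.31 to 6.35) and 7.13-fold (3.47 to 18.5) lower in the allograft. The first of them changed direction when cells were thinned, with a log2 ratio of 0.35, and was -0.28 with every cell scaled to the same total. Native low-C1q phagocytes were at least 8.33-fold above those of spleen, taking 3 UMIs as the limit for the spleen's 0. T cells had 3.78, 1.43 and 8.15 CPM from 6, 2 and 41 UMIs, and the allograft level was 2.01-fold below spleen with an interval (0.91 to 6.21) that includes no difference.

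Ly6e was the most even member. In C1q macrophages it was 1589 CPM in the allograft, 1209 in the native library and 1565 in spleen, a 1.31-fold allograft to native ratio (1.29 to 1.34). In T cells it was 722, 669 and 745 CPM, and the ratio of 1.08 (0.99 to 1.18) includes no difference. In neutrophils it was 416, 231 and 450 CPM (1.80-fold over native, 1.54 to 2.10), and in B cells 1281, 1109 and 1543. Low-C1q phagocytes were an exception, with 1189, 477 and 2077 CPM. There the allograft was 2.49-fold above native (2.36 to 2.63) and 1.75-fold below spleen (1.68 to 1.82), and the native level was 4.35-fold below spleen (4.11 to 4.61). Ly6e RNA was found in 94.1%, 88.5% and 91.2% of C1q macrophages, in 40.3%, 30.9% and 47.7% of neutrophils and, after thinning, in 68.9%, 59.1% and 63.3% of the macrophages. Native C1q macrophages with Lyve1 or Cd163 had 1552 CPM and the 42 such allograft cells 3364, whereas those with Gpnmb or Spp1 had 852 in the allograft and 660 in the native library. Native fibroblasts had 237 CPM and the 26 allograft fibroblasts 742.

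Ly6d was mainly a B cell gene in all 3 libraries, and it was also found in immature T cells of the native library and in dendritic cells. In the allograft, 45 dendritic cells held 85 of the 285 UMIs of Ly6d. Dendritic cells had 15.3 CPM of it in the native library and 549 in spleen. B cells had 999 CPM in the allograft (152 UMIs), 1361 in the native trachea (432 UMIs) and 2010 in spleen (25703 UMIs), and its RNA was found in 71.4%, 82.8% and 94.8% of them at median depths of 3058, 5074.5 and 4686. After thinning the shares were 34.3%, 48.3% and 79.0%. Spleen B cells with Cr2, a complement receptor of mature B cells, had 2254 CPM. In T cells Ly6d was 0 UMIs in the allograft, 123 CPM in the native library (173 UMIs) and 12.3 in spleen (62 UMIs). The native level was 9.96-fold the spleen level (7.45 to 13.6), and the allograft level was at least 65.2-fold below native and at least 6.51-fold below spleen with 3 UMIs as its limit. Of the 173 native UMIs, 154 lay in the 70 cells with Rag1 or Dntt (275 CPM), and the 40 cells with both Cd4 and Cd8 had 351 CPM. Without the Rag1 or Dntt cells the native T cell level was 22.5 CPM (19 UMIs, 47.4% of them in 1 cell), and its log2 ratio to spleen was 0.91 in place of 3.32. Spleen neutrophils had 13.3 CPM, near the spleen T cell level, and allograft and native neutrophils had 0 UMIs. In C1q macrophages Ly6d had 5, 28 and 4 UMIs, and 75.0% of the native ones lay in 1 cell.

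Counting members that lay 2-fold or more apart sets these differences beside all genes. Between allograft and native libraries, 5 of 6 measured members were apart in C1q macrophages (3 higher and 2 lower in the allograft) where 15.3% of all genes were. The 2 lower ones, Ly6c1 and Ly6d, rest on few UMIs, and thinning or a minimum of 50 UMIs left 3 members apart. In low-C1q phagocytes 5 of 6 were apart (4 higher, 1 lower) against 13.6%, in T cells 3 of 4 (2 higher, 1 lower) against 20.6%, and in neutrophils 1 of 4 against 7.73%, Ly6a at 4.67-fold (2.31 to 11.04) on 31 and 10 UMIs. The neutrophil count ranged from 0 to 4 under other settings. The lower member in T cells was Ly6d, with 0 allograft and 173 native UMIs. Most of the native ones lay in immature cells with Rag1 or Dntt RNA. The median log2 ratio over the measured members was 1.66 in C1q macrophages, 1.59 in low-C1q phagocytes, 1.94 in T cells and 0.84 in neutrophils, beside 0.08, 0.17, 0.01 and 0.07 over all genes.

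**Figure D4:**
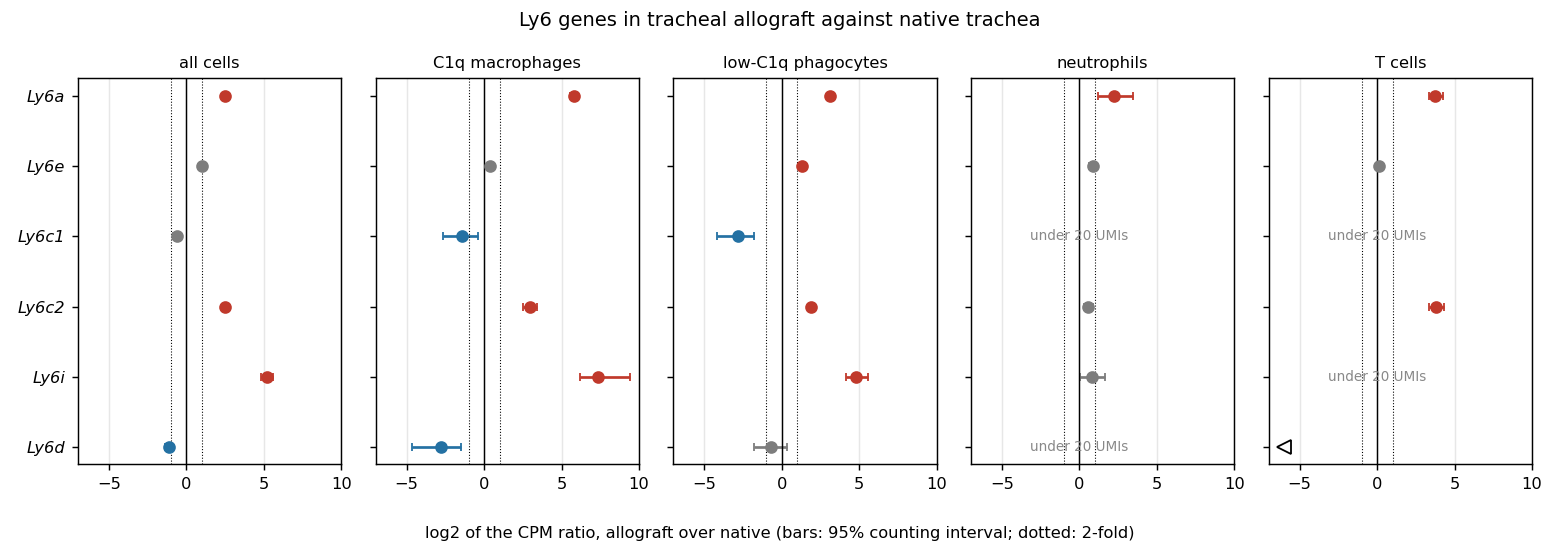
Log2 ratio of the allograft to the native level of each measured Ly6 gene by class, with 95% counting intervals and dotted lines at 2-fold. The open triangle is a bound for Ly6d in T cells, which had 0 allograft UMIs; Ly6a lies right of 2-fold in every class drawn, and Ly6e does so only in low-C1q phagocytes.

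Against spleen, the allograft had 2 of 4 members apart in C1q macrophages where 38.3% of all genes were, 2 of 4 in neutrophils against 43.1%, 3 of 5 in T cells against 28.2%, 1 of 2 in NK cells against 23.7% and 2 of 5 in low-C1q phagocytes against 36.8%. The shares in C1q macrophages, neutrophils and low-C1q phagocytes lie near the background and are no result about the members. In T cells the 3 were Ly6c2, Ly6d and, with an interval that includes no difference, Ly6c1; thinning or a 3-fold mark left 1. In NK cells it was Ly6c2. Between native trachea and spleen, 3 of 6 were apart in C1q macrophages against 43.5%, 2 of 4 in neutrophils against 40.4%, 4 of 5 in T cells against 30.6%, 2 of 5 in B cells against 35.2%, 5 of 6 in low-C1q phagocytes against 44.8% and 4 of 4 in dendritic cells against 45.6%. In B cells these were Ly6c2, whose 10 native UMIs all lay in 1 cell, and Ly6i with 0 native UMIs, too few to show a 2-fold gap in 58 cells. Neither is read as a difference. Between native trachea and spleen, too, the shares in C1q macrophages, neutrophils and B cells lie near the background and are no result about the members. Among the 4 in T cells was Ly6d, whose native UMIs lay mostly in immature cells. The 88 native and 67 spleen dendritic cells had 19.4 and 251 CPM of Ly6a, 364 and 1210 of Ly6e, 32.7 and 398 of Ly6c2 and 15.3 and 549 of Ly6d. The dendritic gate took cells with Flt3 and H2-Aa, H2-Ab1 or Cd74 RNA, and also cells with Siglech RNA. The mix of these in each library was not tested and cannot be told apart from a difference in level. These comparisons share their libraries, and the spleen has only 57 C1q macrophages.

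Within single classes the members were found together in some cells and apart in others. Each cell was thinned to 2000 UMIs, and shallower cells were left out, so that depth did not differ. Among allograft C1q macrophages, Ly6e was found in 95.9% of the 678 cells with Ly6a and 74.0% of the 954 without, Ly6c2 in 7.23% and 1.15%, and Ly6i in 8.11% and 3.46%. Of the 60 cells with Ly6c2, 31.7% had Ly6i, against 4.39% of the cells without. Allograft low-C1q phagocytes were alike: Ly6c2 was found in 41.7% of the 175 cells with Ly6a and 22.9% of the 362 without, and Ly6i in 30.9% and 9.39%. In spleen low-C1q phagocytes Ly6c2 was found in 2 of only 29 cells with Ly6a (6.90%, interval 0.85 to 22.8) and in 14.0% of the 413 without. The interval covers both shares, so no difference is read there. Ly6d, high in B cells, was found in 34.5% of those 29 cells and 2.91% of the 413. Whether B cell RNA or doublets gave these UMIs was not tested. In T cells Ly6c2 was found in 29.3% of 140 allograft T cells with Ly6a and 30.5% of 197 without, and in spleen Ly6a was found in 23.5% of the 102 T cells with Ly6c2 and 40.7% of the 929 without. In native fibroblasts Ly6a was found in 82.9% of the 35 cells with Ly6c1 and 18.9% of the 798 without. In spleen B cells Ly6a was found in 59.1% of the 1925 cells with Ly6d and 37.5% of the 224 without. Cells of a library are not replicates, so these shares describe the libraries only.

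**Figure D5:**
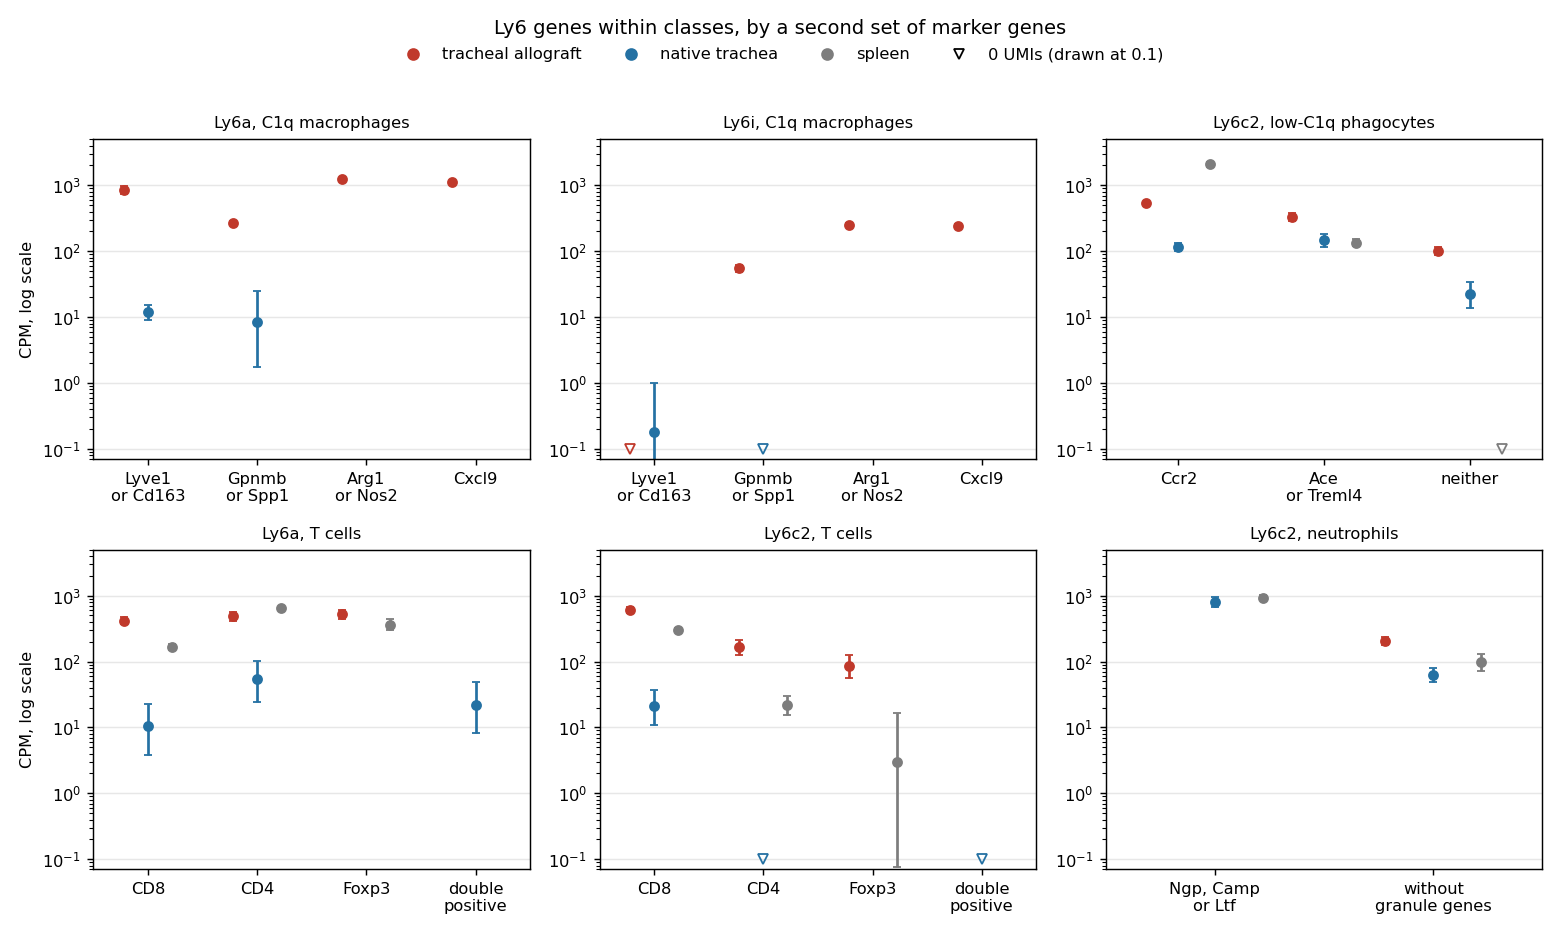
Level of Ly6 genes (CPM) in subsets of cells within a class, by library, with 95% counting intervals. In allograft C1q macrophages Ly6a is 1251 CPM in the Arg1 or Nos2 subset and 270 in the Gpnmb or Spp1 subset, and in neutrophils Ly6c2 is 924 and 810 CPM in the granule-gene subsets of spleen and native trachea. Open triangles mark 0 UMIs.

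Several members are known to respond to interferon, so a list of 24 interferon-induced genes was read in the same classes. In C1q macrophages 15 of 24 exceeded the native level by 2-fold or more in the allograft, 0 lay as far below it, and the median log2 ratio was 1.35. Of all 12002 genes measured there, 806 were as far above and 1035 as far below. In neutrophils 18 of 21 measured genes were higher and 0 lower (median 1.85), where 226 and 240 of all 6026 genes were. In low-C1q phagocytes these were 16 of 24 and 0 (1.58), against 662 and 773 of 10514, and in T cells 9 of 20 and 3 (0.96), against 848 and 957 of 8775. Within C1q macrophages the GTPase gene Gbp2 was 296 CPM in the allograft and 51.8 in the native library. The list was not even: Isg15, a type I interferon target, was 77.8 and 127 CPM, Ifit3 was 17.8 and 18.6, and the tetherin gene Bst2 was 466 and 272. The interferon receptor genes lay closer, with Ifngr1 at 153 and 128 CPM, Ifngr2 at 113 and 93.5, Ifnar1 at 130 and 130, and Ifnar2 at 110.1 and 83.3. Pigk, the catalytic subunit of the enzyme that attaches GPI anchors, was 37.0 and 29.9. In T cells, a class that includes immature Rag1 or Dntt cells in the native library, Ifngr1 was 1566 CPM in the allograft and 523 in the native library. Whether interferon bears on any Ly6 level was not tested.

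Over all cells, genes listed from the wider Ly6/uPAR superfamily lay on both sides of the native level. Of 39 further genes listed, 34 were in the gene table and 17 had 20 or more UMIs over the libraries. Of 14 measured between allograft and native libraries, the allograft exceeded the native level by 2-fold or more in 4 and lay as far below it in 7. The median log2 ratio was -0.76. Of all 15100 genes measured there, 24.6% lay 2-fold or more apart, 1011 above and 2700 below, and the median was 0.03. The classes differ in number between these libraries, which a count over all cells does not separate. Plaur, the urokinase receptor, was 222, 198 and 43.2 CPM, and the complement regulator Cd59a was 4.51, 31.5 and 9.86. Ly6g, the neutrophil antigen, was 1.14, 6.69 and 27.7 CPM, and in neutrophils it was 26.8 in the allograft and 133 in the native library, lower where Ly6a was higher. Ly6k was 1.57, 5.24 and 26.3 CPM, and Lynx1 1.33, 8.83 and 18.4. The listed gene Gm5150 was 14.6, 5.70 and 13.4. It is counted among the 14, but its place in the superfamily was not checked.

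Over the 20 groups of class and library with 50 or more cells, the genes whose levels were most like each member differed between members. The measure was Pearson's r of log2(CPM + 10) over 6645 genes, given as a description because groups of a library share its depth and processing. For Ly6d these were Spib (0.95), Fcrla (0.94) and Ms4a1 (0.94). For Ly6c1 they were Ppic (0.94), Auts2 (0.92) and Tshz2 (0.92), and for Ly6i Klra2 (0.89), Naip2 (0.89) and Sirpb1c (0.87). Ly6e was most like Atp13a2 (0.85), Vac14 (0.84) and Cd72 (0.84), Ly6c2 like Itgal (0.78), Cyfip2 (0.74) and Atg101 (0.74), and Ly6a like Chchd10 (0.85), Mettl1 (0.72) and Atic (0.71). No member was among the 3 of another. Between members r ran from -0.52 for Ly6e and Ly6c1 to 0.45 for Ly6a and Ly6d, and the near-identical Ly6c1 and Ly6c2 stood at -0.39.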

How the data were processed

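RNA of single cells was captured with 10x Chromium 3′ v3 chemistry, per the labels' protocols. The deposited values are raw UMI counts per gene and cell, made by the authors with Cell Ranger 3.1.0, per the file headers, on mm10, per the submitters' processing notes. The gene annotation and the counting of reads that fit several genes are not given in the sources used here. The 3 pooled matrices hold 4611 allograft, 4626 native and 4856 spleen barcodes with 26503045, 31415458 and 28318436 UMIs. The members and all gene lists were chosen with earlier results of these data known.

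Cells with at least 500 detected genes and at most 20% mitochondrial UMIs were kept. Scrublet in scanpy 1.11.5 called 31, 43 and 9 doublets (0.672%, 0.930% and 0.185% of barcodes), which were removed. It expected 3.69%, 3.70% and 3.88%, so the caller did not work well here and doublets may remain in all 3 libraries. Class gates are sums of marker UMIs, and 0 cells fell into more than 1 of the 6 main class gates. UMIs were summed over the cells of a library and class and divided by their total to give CPM. A ratio had 0.5 UMI added to each sum and an exact conditional binomial 95% interval (scipy 1.17.1), levels had exact Poisson intervals and shares of cells exact Clopper-Pearson intervals. A gene was measured with 20 or more summed UMIs in a comparison and 50 or more cells per library and class, and was counted as apart at 2-fold. With 1 library per source there is no test and no p-value. The ratio code was tested on simulated data. CPM of UMIs counts RNA ends and is not divided by gene length, so levels of different genes are not compared.

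Named are the 6 members in every library and class, and up to 6 genes of the Ly6/uPAR list with the most UMIs. Also named are 4 interferon-induced genes, the interferon receptor genes and Pigk. For each member the 3 genes of highest correlation over groups are named, among genes reaching 50 CPM in a group. The alternatives tried were other cell filters, doublets kept, other scalings, doubled gate thresholds, thinning to 1000 UMIs, a 3-fold mark and 50 summed UMIs. Thinning left out cells below the thinned depth. The 3 that leave out subsets of T cells, neutrophils and macrophages, the Y-linked genes and Hbb-bs and Scgb1a1 as values to print were chosen after seeing the data. Values of 1 further listed gene and of 1 subset of B cells are not reported here. Coding sequences were taken from GENCODE M21 (GRCm38), and upstream sequences from RefSeq (GRCm38.p6), which matched 2 of the 6 members. Sequences were aligned with biopython 1.88 and figures drawn with matplotlib 3.10.9; tables were handled with pandas 2.3.3 and anndata 0.12.19 under Python 3.11.15, with numpy 2.4.6.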

Additional observations from a re-analysis of the deposited data

Results flagged for a closer look

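Ly6c2, Ly6c1 and Ly6d lay 2-fold or more apart in opposite directions in different cell classes of the same pair of libraries. With 1 library per source, no such difference between classes was tested. Between allograft and spleen the log2 ratio of Ly6c2 was 1.42 in T cells, but -2.11 in C1q macrophages, -1.24 in neutrophils and -1.75 in NK cells. The neutrophil value became 1.07, the direction of T cells, without granule-gene cells, and the macrophage value rests on 30 spleen UMIs, 43.3% of them in 1 cell. Between native trachea and spleen, Ly6c2 had a log2 ratio of 1.36 in B cells, where 1 cell held all 10 native UMIs. In the same comparison it was -5.04 in C1q macrophages, -1.81 in neutrophils, -2.37 in T cells, -1.95 in low-C1q phagocytes and -3.59 in dendritic cells. Ly6d, between native trachea and spleen, had a log2 ratio of 3.32 in T cells, 154 of whose 173 native UMIs lay in cells with Rag1 or Dntt. Its ratio was -2.99 in C1q macrophages, from 28 native UMIs, most of them in 1 cell, and 4 spleen UMIs. It was -4.17 in low-C1q phagocytes, from 18 and 203 UMIs, and whether B cell RNA or doublets gave the latter was not tested. In dendritic cells, whose mix was not tested, it was -5.12. Ly6c1, between the same libraries, had a fitted log2 ratio of 5.66 in low-C1q phagocytes, which rests on 41 native and 0 spleen UMIs and is no bound, and -2.21 in T cells, from 2 and 41 UMIs.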

How the results depend on the processing

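Of 541 values of the 76 member ratios under other processing settings, 3 of ratios past 2-fold changed direction, as did 13 of ratios under 2-fold. Of the 48 ratios past 2-fold, 7 fell below it under at least 1 setting, and 10 others came to pass it. Of 146 counts of members apart, 128 stayed within 1.5 times the reported count and 18 did not. The cause was not tested. The number of members measured and the share of all genes past the mark can change with the setting too, and are not given here. The counts below therefore show only how the reported counts move, and are no result about the members. Thinning to 1000 UMIs gave 3 members apart between allograft and native C1q macrophages, 0 between allograft and spleen neutrophils, 1 between allograft and spleen T cells and 1 between native and spleen B cells. In thinned cells the log2 ratio became 0.35 for Ly6c1 between allograft and native C1q macrophages, and -0.055 for Ly6c2 and 1.77 for Ly6i between native and spleen B cells. Scaling every cell to the same total gave 4 members in neutrophils between allograft and native and 4 between native and spleen, and 0 between allograft and spleen neutrophils and 0 between native and spleen B cells. A minimum of 50 UMIs gave 3 between allograft and native C1q macrophages, 0 between allograft and native neutrophils, 1 between allograft and spleen neutrophils and 1 between native and spleen C1q macrophages. A 3-fold mark gave 0 between allograft and spleen neutrophils, 1 between allograft and spleen T cells, 1 between native and spleen neutrophils and 0 between native and spleen B cells. With doublets kept, 2 were apart between allograft and native neutrophils, and with the stricter cell filter (1000 genes, 10% mitochondrial UMIs) 1 between native and spleen neutrophils. Without granule-gene neutrophils, an alternative chosen after seeing the data, the count was 3 between allograft and native and 1 between native and spleen neutrophils, and the log2 ratio of Ly6c2 between allograft and spleen became 1.07.

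Median-of-ratios scaling moved all genes by over 0.1 log2 in 9 comparisons: the median of all genes was 0.17 between allograft and native low-C1q phagocytes, -0.37, -0.20 and -0.27 between allograft and spleen C1q macrophages, neutrophils and low-C1q phagocytes, and -0.36, -0.27, -0.32, -0.44 and -0.56 between native and spleen C1q macrophages, neutrophils, B cells, low-C1q phagocytes and dendritic cells. It put 6 ratios on the other side of 0, none of them past 2-fold: Ly6e in neutrophils and Ly6c2 and Ly6i in low-C1q phagocytes between allograft and spleen, and Ly6c1 in C1q macrophages and Ly6a in B cells and low-C1q phagocytes between native and spleen. With under 50 cells left, the stricter filter was not run for C1q macrophages against spleen or for allograft neutrophils, thinning not for C1q macrophages against spleen, and doubled gates neither there nor for NK cells. Replicates could not be left out because cells cannot be assigned to samples. No paired analysis was possible because each source is 1 pooled matrix and the labels give no replicate number shared between sources. Ratios on few UMIs, such as Ly6i in native C1q macrophages with 4, are limited by depth.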

Other observations

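UMIs of the Y-linked genes Ddx3y, Eif2s3y and Uty, chosen after seeing the data, were found in 61 of 3864 allograft cells (1.58%, 197 UMIs) and in 0 native and 0 spleen cells. Of the 61 cells, 41 carried the cartilage markers Acan or Col2a1, 3 were fibroblasts, 5 low-C1q phagocytes and 4 C1q macrophages. In the 61 cells Ly6a stood at 1190 CPM (1092 UMIs in 47 cells), Ly6e at 736, Ly6c1 at 27.2, Ly6c2 at 64.3 and Ly6i at 38.1, and Ly6d had 0 UMIs. In the other allograft cells Ly6a stood at 541 CPM, Ly6e at 1291, Ly6c1 at 7.36, Ly6c2 at 137, Ly6i at 76.2 and Ly6d at 11.6. The 3 fibroblasts with Y-linked UMIs had 3519 CPM of Ly6a, 52.4% of it in 1 cell, and 0 UMIs of Ly6c1, whereas the 23 without had 466 CPM of Ly6c1.

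Gm5150 in C1q macrophages was 12.1 CPM in the allograft and 0.77 in the native library. The 24 native epithelial cells had 458 CPM of Ly6a and 40.5 of Ly6c1. The 29 spleen erythroid cells had 1.25 CPM of Ly6a and 273 of Ly6e.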
